A study of Mus musculus with 6 samples.

Results

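The genes of calcineurin, its RCAN regulators and the NFAT transcription factors that calcineurin controls were followed in mouse embryonic cardiomyocytes after knockdown of DNMT1, the methyltransferase that copies DNA methylation onto newly made DNA. They were 10 named genes (Ppp3ca, Ppp3cb, Ppp3r1, Rcan1, Rcan2, Rcan3, Nfatc1, Nfatc2, Nfatc3 and Nfatc4) of the 43629 genes listed in the count files. Symbols were matched to Ensembl identifiers, and all 10 were found and passed edgeR's filter on low counts, which left 15470 genes to test. RNA-Seq was performed on 6 cultures, 3 treated with negative siRNA (the controls) and 3 with DNMT1 siRNA (the knockdown), each at 12 nM and collected 72 h after transfection. The cells of both groups were primary ventricular cells of CD-1 mouse embryos at embryonic day 13.5 with no engineered allele. Ventricles were pooled within each litter, and after culture the cells were enriched for cardiomyocytes with magnetic beads against VCAM1. The DNMT1 reagent was a pool of several siRNAs, and the control was a non-targeting siRNA. Whether the 3 cultures of a group came from different litters is not given in the sources used here, so p values measure the spread between these cultures, which may be technical.

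Calcineurin is a calcium-activated phosphatase made of a catalytic A subunit and a regulatory B subunit. When calcium rises, calmodulin switches the enzyme on, and it removes phosphates from the NFATC proteins, which then enter the nucleus and act with partner factors such as GATA4 until kinases return them to the cytoplasm. The RCAN proteins bind calcineurin and limit it, and one Rcan1 transcript starts at an internal promoter that is itself switched on by NFAT. In the heart the pathway is best known for growth of the muscle cell under load and, through NFATC1 in the endocardium, for formation of the valves.

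Of the 10 genes, 2 were up-regulated by DNMT1 siRNA and 0 were down-regulated at an adjusted p below 0.05 and an absolute fold change above 1.5. At the same limits 4.26% of all tested genes rose and 2.23% fell. Rcan2 rose 1.80-fold and Nfatc2 rose 1.72-fold. The calcineurin subunits, Rcan1, Rcan3, Nfatc1, Nfatc3 and Nfatc4 did not pass the limits, with log2 ratios (the fitted log2 fold change of DNMT1 siRNA over negative siRNA) between -0.38 and 0.01. At an unadjusted p below 0.05, edgeR's quasi-likelihood test found no further gene among the 10. The share of all tested genes below that limit was not counted. The edgeR exact test called 2 of the 10 up-regulated and 0 down-regulated, beside 824 and 460 of all genes. DESeq2 also called 2 and 0, beside 694 and 437 of all genes. The median log2 ratio of the 10 genes was -0.08, beside -0.0049 for all tested genes.

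**Figure D1:**
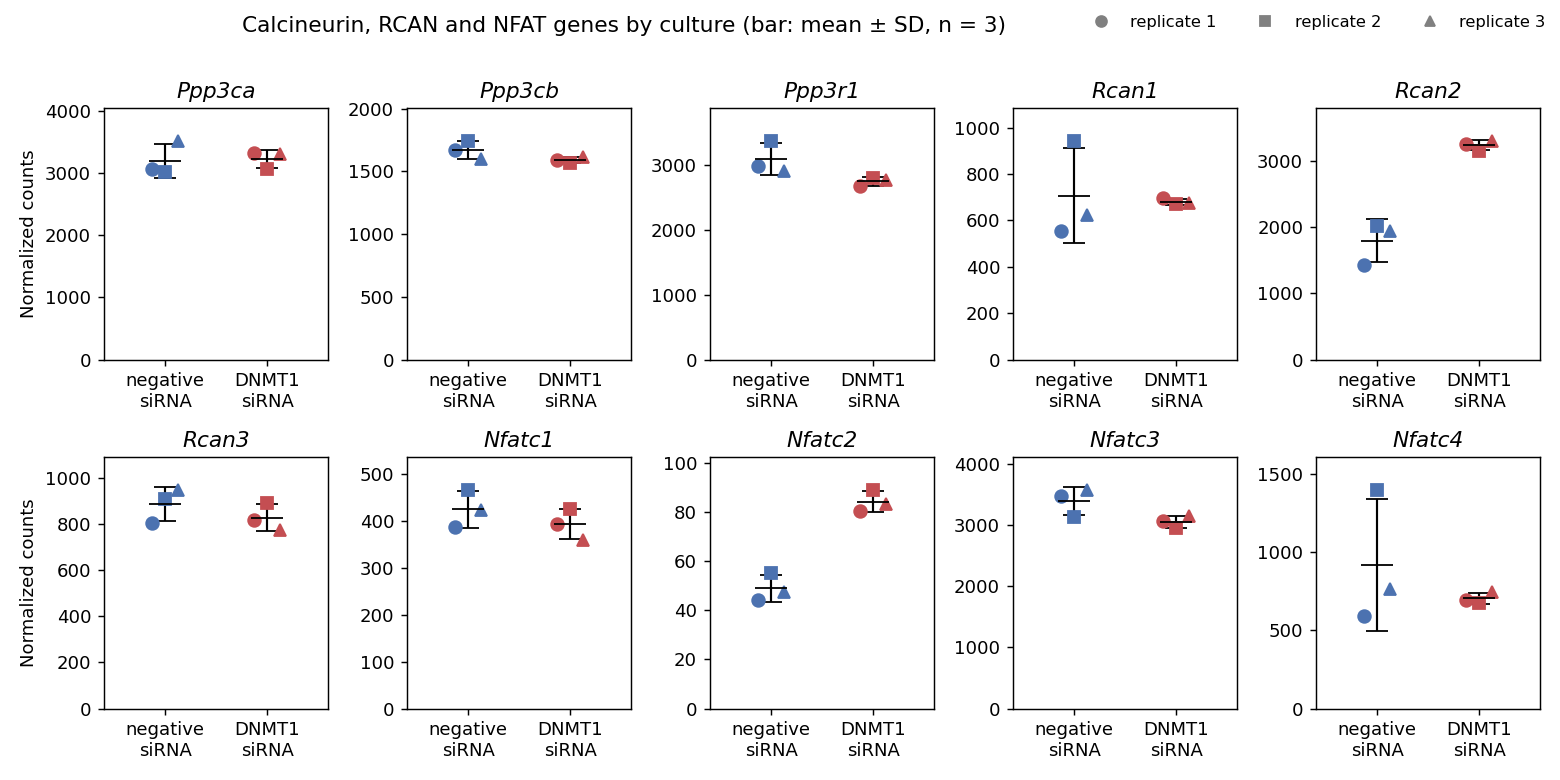
Normalized counts (y axis, from 0, counts scaled to a common library size) of the 10 genes in each negative siRNA culture (blue) and each DNMT1 siRNA culture (red), with the mean and SD over 3 cultures. All red points of Rcan2 and Nfatc2 lie above all blue points, while negative siRNA replicate 2 stands alone at the top for Rcan1 and Nfatc4.

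The knockdown was followed by the sample titles, which name DNMT1, although a treatment tag gives the same cultures DNMT3a as the siRNA target. The counts set Dnmt1 low in these cultures. Normalized counts of Dnmt1 were 3446, 2760 and 2878 in the controls and 772, 786 and 666 after knockdown, a log2 ratio of -2.03 (SE 0.11, adjusted p = 0.000192), while Dnmt3a had a log2 ratio of 0.24 (SE 0.08, adjusted p = 0.0919). Reads counted on genes ranged from 27852412 to 35896018 with negative siRNA and from 13739561 to 16186310 with DNMT1 siRNA. Reads outside annotated exons made up 14.6 to 17.5% of the reads handled by the counter (on genes, outside exons or ambiguous) in the controls and 24.4 to 32.0% after knockdown, so depth and this share both separate the treatments and cannot be told apart from them. The 6 cardiomyocyte markers were detected in every library, and all 6 were up-regulated, with a summed level of 1680 to 2023 CPM (counts scaled to library size) in the controls and 3758 to 4557 after knockdown. The 8 fibroblast and mesenchymal markers summed to more than the cardiomyocyte markers in every library, 36082 to 55676 CPM in the controls and 27401 to 29238 after knockdown, and 3 of them were down-regulated and 0 up-regulated. Most of this sum was collagen (Col1a1, Col1a2 and Col3a1, named after their values were seen). Sums over different genes do not give shares of cells. The authors reported from earlier flow cytometry that most of the sorted cells were cardiomyocytes. Of 8 endothelial and endocardial markers 3 were up-regulated (157 to 189 and 310 to 315 CPM summed). Much of that sum's difference was Npr3, an endocardial marker at 181 to 434 normalized counts in the controls and 2112 to 2332 after knockdown. The median log2 ratio of the 8 markers was 0.89. Kdr (0.91) and Emcn (1.38) also passed both limits, and Flt1 had 0.41 (adjusted p = 0.0124), short of the fold limit. Pecam1, Cdh5 and Tie1 had log2 ratios of 0.87, 0.83 and 0.97 but did not pass the test. Tek alone had a negative log2 ratio, -0.35 (adjusted p = 0.0373). These markers are named after their values were seen. Of 4 smooth muscle markers 0 passed the limits (4942 to 7615 and 4208 to 4401 CPM). Macrophage markers (6, 5 tested) were near the floor, at 13.2 to 30.4 and 11.4 to 16.3 CPM summed, with 1 down-regulated. The 4 epicardial markers stood at 1228 to 1425 and 1340 to 1396 CPM, with 0 past the limits. No marker was at 0 in any library. In such mixed RNA, fewer cells of a type and less RNA per cell cannot be told apart, and the part of these marker shifts in the results below was not tested.

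Because DNMT1 maintains methylation at CpG sites, the promoters of both raised genes and of Rcan1, the family member with the NFAT-driven internal promoter, are printed with their CpG sites. The sequences are from RefSeq on GRCm38.p6, the 250 bases before the annotated start, 5′ to 3′ on the strand of the gene, with each CpG in capitals. Rcan2 has an upstream start (chr17:43801102-43801351, plus strand) and a start far inside the locus (chr17:43952749-43952998, plus strand).
Rcan2 upstream: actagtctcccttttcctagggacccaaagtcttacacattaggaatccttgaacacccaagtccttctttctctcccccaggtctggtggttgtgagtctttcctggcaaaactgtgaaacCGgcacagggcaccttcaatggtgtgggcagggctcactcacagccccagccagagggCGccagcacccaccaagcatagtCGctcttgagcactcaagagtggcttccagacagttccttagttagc
Rcan2 internal: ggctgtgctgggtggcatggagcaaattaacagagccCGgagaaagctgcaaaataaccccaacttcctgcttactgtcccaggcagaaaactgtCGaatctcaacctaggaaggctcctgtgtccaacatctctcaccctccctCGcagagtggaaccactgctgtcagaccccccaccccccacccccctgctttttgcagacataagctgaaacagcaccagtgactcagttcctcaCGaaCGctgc
Nfatc2 has an upstream start (chr2:168601658-168601907, minus strand) and an internal start (chr2:168590366-168590615, minus strand).
Nfatc2 upstream: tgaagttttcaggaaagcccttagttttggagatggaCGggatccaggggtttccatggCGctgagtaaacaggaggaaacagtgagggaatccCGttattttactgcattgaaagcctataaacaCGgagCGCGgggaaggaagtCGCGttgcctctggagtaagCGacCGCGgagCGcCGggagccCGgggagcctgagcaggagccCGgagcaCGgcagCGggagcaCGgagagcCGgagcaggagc
Nfatc2 internal: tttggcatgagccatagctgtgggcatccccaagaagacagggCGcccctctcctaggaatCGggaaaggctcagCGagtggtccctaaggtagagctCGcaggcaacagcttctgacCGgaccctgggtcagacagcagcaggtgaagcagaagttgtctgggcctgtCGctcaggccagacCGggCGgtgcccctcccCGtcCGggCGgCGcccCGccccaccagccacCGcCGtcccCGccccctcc
Rcan1 has an upstream start (chr16:92466170-92466419, minus strand) and an internal start (chr16:92400079-92400328, minus strand).
Rcan1 upstream: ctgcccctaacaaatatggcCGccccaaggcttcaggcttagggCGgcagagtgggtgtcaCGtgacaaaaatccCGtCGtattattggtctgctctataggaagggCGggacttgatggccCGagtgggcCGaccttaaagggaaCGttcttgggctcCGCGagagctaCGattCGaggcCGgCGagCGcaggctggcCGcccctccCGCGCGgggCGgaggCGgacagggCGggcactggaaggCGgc
Rcan1 internal: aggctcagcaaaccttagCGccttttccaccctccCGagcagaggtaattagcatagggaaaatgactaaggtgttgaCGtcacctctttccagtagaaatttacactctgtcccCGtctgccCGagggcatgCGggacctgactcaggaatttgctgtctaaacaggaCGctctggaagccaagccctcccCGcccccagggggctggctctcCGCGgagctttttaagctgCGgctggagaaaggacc

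The number of CpG sites differed between these windows. Over all 32851 RefSeq promoter windows of the same length, the median was 6 CpG, with quartiles of 2 and 16. The printed Rcan2 windows held 3 CpG upstream and 5 at the internal start, while a further Rcan2 window (chr17:43801601-43801850), which overlaps an annotated exon and is not printed, held 16. Both Nfatc2 windows were CpG-rich, with 19 upstream and 16 at the internal start. Rcan1 held 24 upstream and 11 at the internal start, so raised and unraised genes both had windows above the median. The core motif of NFAT binding, GGAAA, was searched on both strands (as GGAAA or TTTCC) and was present in 55.6% of all windows. It occurred 3 times in the internal Rcan1 window and 0 times in the upstream one, 2 times in the upstream Rcan2 window and 0 times in the internal one, and 3 times upstream and 1 time at the internal start of Nfatc2. Windows were given for 8 of the 10 genes, 13 windows in all. Methylation was not measured in these count files, and counts per gene do not tell which start was used.

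Rcan2 (ENSMUSG00000039601, chromosome 17 of GRCm38, 43801351 to 44039516, protein coding), a regulator that binds calcineurin and is expressed mainly in muscle and brain, changed most of the 10 genes. Its normalized counts were 1423, 2014 and 1945 in the negative siRNA cultures and 3249, 3150 and 3297 in the DNMT1 siRNA cultures. The treatments did not overlap, and the lowest DNMT1 siRNA culture lay above the highest negative siRNA culture by more than the whole range of the negative siRNA cultures. Of all tested genes, 18.3% were higher in every DNMT1 siRNA culture. The log2 ratio was 0.85 (SE 0.12, adjusted p = 0.00502), a fold change of 1.80 with a 95% interval of 1.48 to 2.19. Rcan2 stayed past the limits in each of the 6 fits that left out 1 culture, with log2 ratios of 0.71 to 0.94. The lower end of its interval reached below 1.5-fold, and a test against a fold change of 1.5 (edgeR's glmTreat) gave an adjusted p of 0.263. The 6 cardiomyocyte markers also rose, as given above, and their part in the Rcan2 result was not tested.

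The other RCAN genes did not pass the limits. Rcan1 (ENSMUSG00000022951, chromosome 16, 92391953 to 92470867), the most studied calcineurin inhibitor of the heart, had 555, 942 and 625 normalized counts in the controls and 696, 672 and 675 after knockdown. The treatments overlapped, and negative siRNA replicate 2 was above all other cultures. The log2 ratio of Rcan1 was -0.05 (SE 0.18, adjusted p = 0.870), with a fold interval of 0.723 to 1.28. Without negative siRNA replicate 2 it was 0.21 (adjusted p = 0.131), and this turned the sign. Rcan3 (ENSMUSG00000059713, chromosome 4, 135412308 to 135433853), the least studied regulator of the family, had 805, 908 and 946 normalized counts in the controls and 817, 889 and 775 after knockdown. These cultures overlapped as well (log2 ratio -0.10, SE 0.09, adjusted p = 0.507).

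Within the RCAN family, Rcan2 took a larger share after knockdown. On a scale of CPM per kilobase of exon, which allows levels of different genes to be set side by side, Rcan2 made up 49.1, 48.8 and 53.4% of the RCAN transcripts in the negative siRNA cultures and 65.9, 64.8 and 67.0% in the DNMT1 siRNA cultures. The means were 50.4% ± 2.58 and 65.9% ± 1.14 (SD, n = 3 each). Rcan1 held 27.9% ± 4.08 and 19.7% ± 0.275, and Rcan3 held 21.6% ± 2.53 and 14.4% ± 1.10 (SD, n = 3 each). None of these shares overlapped between treatments. Shares of a family add up to the whole, so a larger share of Rcan2 lowers the others. These are not separate results, and the levels of Rcan1 and Rcan3 themselves overlapped between treatments. The summed RCAN level was 30.5, 43.5 and 38.3 CPM per kilobase in the controls and 52.0, 51.2 and 51.8 after knockdown. Shares were not tested, since they combine the genes under study.

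**Figure D2:**
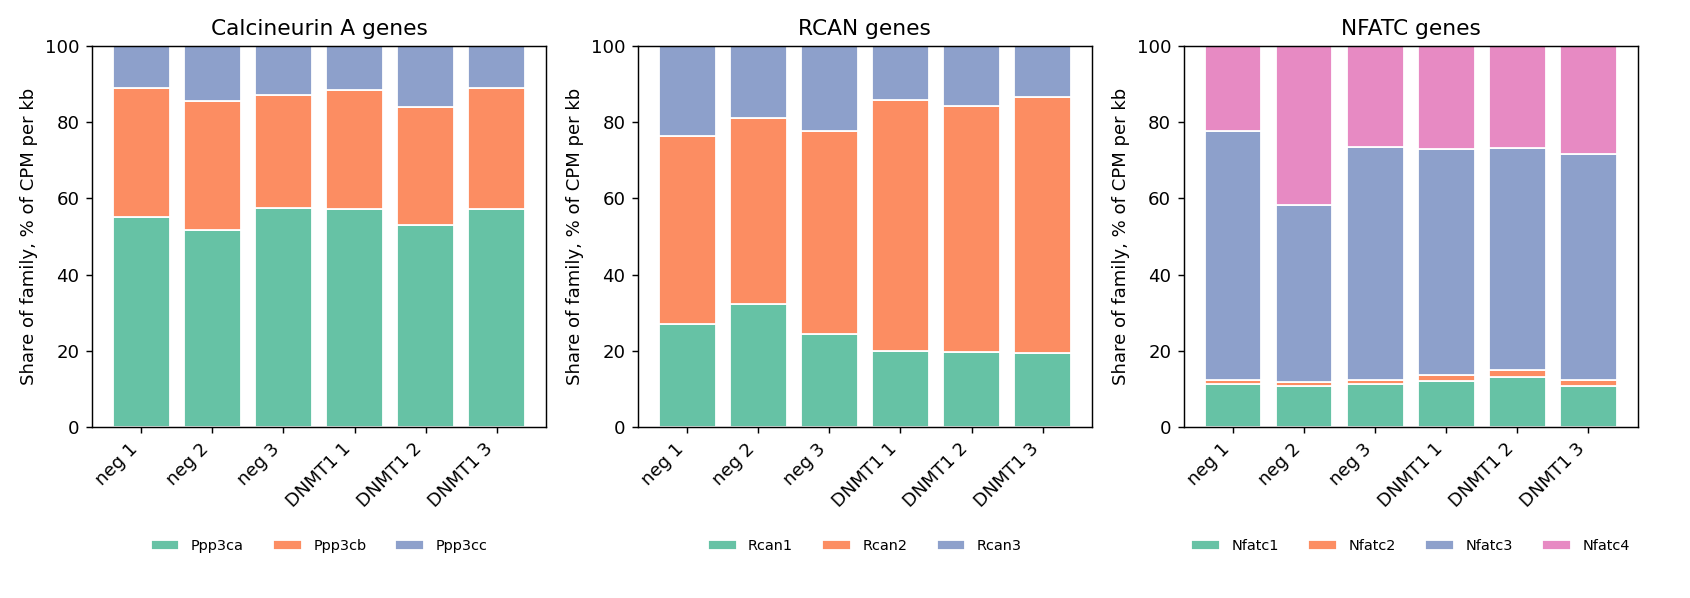
Share of each gene in the summed level of its family (y axis, percent of CPM per kilobase of exon) in each culture, with neg for negative siRNA and DNMT1 for DNMT1 siRNA. Rcan2 takes 48.8 to 53.4% of the RCAN family in the controls and 64.8 to 67.0% after knockdown, and Nfatc4 is largest in negative siRNA replicate 2.

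Among the NFAT factors, Nfatc2 (ENSMUSG00000027544, chromosome 2, 168476410 to 168601657), best known as a factor of activated T cells, was the lowest expressed and the one that rose. Raw counts were 76, 80 and 61 in the controls and 60, 61 and 51 after knockdown, the negative siRNA libraries being the deeper ones. After normalization they were 44.3, 55.1 and 47.4 in the controls and 80.5, 88.9 and 83.4 after knockdown. The treatments did not overlap. The log2 ratio was 0.78 (SE 0.18, adjusted p = 0.0307), a fold change of 1.72 with a 95% interval of 1.29 to 2.30. This call was less firm than that of Rcan2. It was lost in 5 of the 6 fits that left out 1 culture (adjusted p between 0.0527 and 0.139, log2 ratios between 0.71 and 0.79) and held only without negative siRNA replicate 2 (0.88, adjusted p = 0.0151). The adjusted p was 0.0543 without negative siRNA replicate 1, 0.0527 without replicate 3, and 0.101, 0.139 and 0.109 without DNMT1 siRNA replicates 1, 2 and 3. With the replicate number as a block it was 0.0595. The macrophage marker Ptprc, a marker of white blood cells in general, was low in both treatments (11.7 to 33.4 normalized counts in the controls and 10.7 to 19.6 with DNMT1 siRNA) and is named here after its values were seen. The endothelial and endocardial markers, which rose in part, and Ptprc were not tested for a part in the Nfatc2 result.

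The remaining NFAT genes were expressed at higher levels and did not pass the limits. Nfatc3 (ENSMUSG00000031902, chromosome 8, 106058840 to 106130537), the NFAT factor best linked to growth of heart muscle cells, had 3474, 3136 and 3571 normalized counts in the controls and 3059, 2949 and 3153 after knockdown. Its ranges overlapped slightly (log2 ratio -0.15, SE 0.07, adjusted p = 0.198). Without negative siRNA replicate 2 the log2 ratio of Nfatc3 was -0.21 (adjusted p = 0.0411), short of the fold limit. Nfatc1 (ENSMUSG00000033016, chromosome 18, 80606205 to 80713071), the factor of the endocardial cells that form the valves, had 386, 465 and 422 normalized counts in the controls and 394, 424 and 360 after knockdown. These overlapped (log2 ratio -0.11, SE 0.11, adjusted p = 0.535). The summed endothelial and endocardial markers did not overlap between treatments, and their part in the Nfatc1 value was not tested. Nfatc4 (ENSMUSG00000023411, chromosome 14, 55823144 to 55833943), a factor through which calcineurin can drive cardiac growth together with GATA4, had 592, 1394 and 766 normalized counts in the controls and 695, 675 and 744 after knockdown. Negative siRNA replicate 2 was far above all other cultures, and the log2 ratio of -0.38 (SE 0.27, adjusted p = 0.399) became 0.06 (adjusted p = 0.785) without it. This culture was the highest control for 7 of the 10 genes. Its fibroblast and mesenchymal markers summed to 55676 CPM, against 36082 and 38250 in the other controls. Its smooth muscle markers summed to 7615 CPM, against 5522 and 4942, while its epicardial sum was the lowest of the controls (1228). Their part in these values was not tested. With no filter on low counts Nfatc4 had an adjusted p of 0.00254 at a log2 ratio of -0.41, short of the fold limit.

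The order of the NFAT levels was the same in both treatments. With negative siRNA, Nfatc3 stood at 13.3 ± 0.897 CPM per kilobase, Nfatc4 at 7.27 ± 3.34, Nfatc1 at 2.62 ± 0.244 and Nfatc2 at 0.213 ± 0.0242 (SD, n = 3 each). With DNMT1 siRNA the values were 12.0 ± 0.402 for Nfatc3, 5.59 ± 0.283 for Nfatc4, 2.42 ± 0.199 for Nfatc1 and 0.367 ± 0.0187 for Nfatc2. Nfatc2 made up 0.910% ± 0.0112 of the NFATC transcripts in the controls and 1.80% ± 0.121 after knockdown (SD, n = 3 each). Nfatc3 held 57.7% ± 9.86 and 58.9% ± 0.679 (SD, n = 3 each), a difference smaller than the spread between negative siRNA cultures. The small SD of the Nfatc2 share in the controls does not measure the spread of that gene. Its normalized counts there had an SD of 11.4% of their mean. Negative siRNA replicate 2 was the highest control both for Nfatc2 and for the summed NFATC level.

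None of the calcineurin subunits passed the limits. Ppp3ca (ENSMUSG00000028161, chromosome 3, 136670124 to 136937727), the main catalytic subunit, had 3069, 3017 and 3518 normalized counts in the controls and 3320, 3070 and 3309 after knockdown. The log2 ratio was 0.01 (SE 0.08, adjusted p = 0.924), and the fold interval of 0.892 to 1.14 leaves out a change of 1.5-fold in either direction. The sign of the log2 ratio turned in 4 of the 6 fits without 1 culture. Ppp3cb (ENSMUSG00000021816, chromosome 14, 20499364 to 20546573), the catalytic subunit whose loss blunts cardiac growth in mice, had 1674, 1742 and 1599.6 normalized counts in the controls and 1593, 1568 and 1619 after knockdown. Its cultures overlapped (log2 ratio -0.07, SE 0.07, adjusted p = 0.520, fold interval 0.859 to 1.06). Ppp3r1 (ENSMUSG00000033953, chromosome 11, 17159263 to 17200375), the regulatory B subunit, had 2984, 3372 and 2915 normalized counts in the controls and 2671, 2806 and 2775 after knockdown. All DNMT1 siRNA cultures lay below all negative siRNA cultures, as for 17.7% of all tested genes, and the log2 ratio of -0.17 (SE 0.07, adjusted p = 0.175) did not pass the test. In a newer annotation, 14.3% of the Ppp3r1 exon bases are shared with Wdr92, and the counter sets reads in such a stretch aside as ambiguous. Ambiguous reads made up 3.58 to 3.65% of each library in the controls and 6.02 to 6.35% after knockdown, and their part in the Ppp3r1 value was not tested. Nfatc3 shares 1.87% of its exon bases with Esrp2 on the opposite strand, and the strand setting of the counting is not given in the sources used here. Of the 8 genes that did not pass the limits, 7 had a 95% interval within 1.5-fold in both directions, and the exception was Nfatc4.

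**Figure D3:**
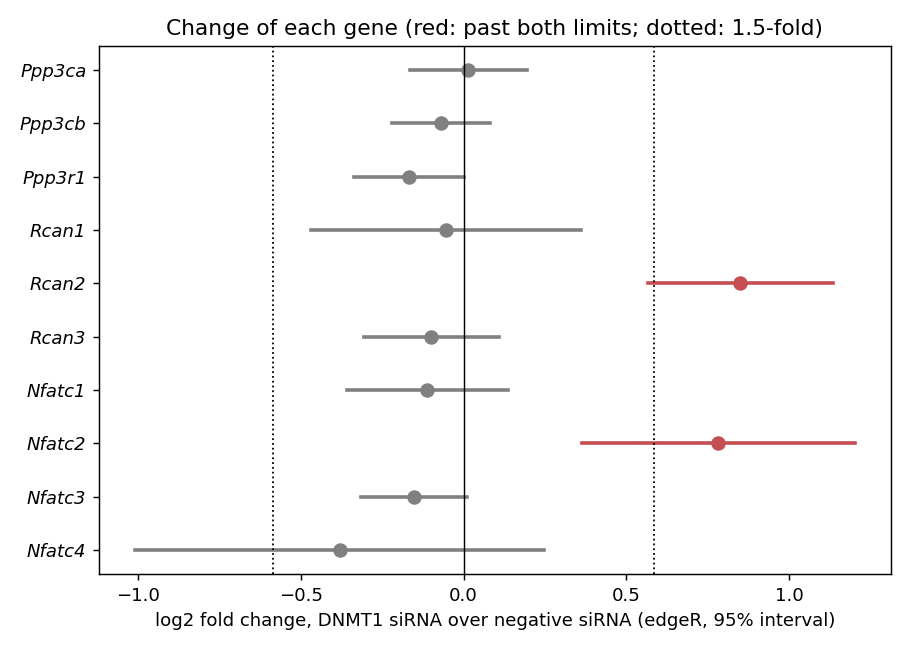
Log2 fold change (x axis) of each of the 10 genes with its 95% interval from edgeR. Red marks genes past both limits and dotted lines mark 1.5-fold. Rcan2 (0.85) and Nfatc2 (0.78) lie to the right, the interval of Nfatc4 is the widest, and the other 7 intervals stay between the dotted lines.

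Catalytic subunit shares were also similar. Ppp3ca made up 54.7% ± 2.94 of the calcineurin A transcripts in the controls and 55.9% ± 2.40 after knockdown, Ppp3cb 32.5% ± 2.47 and 31.2% ± 0.501, and Ppp3cc, the third catalytic gene, 12.8% ± 1.79 and 12.9% ± 2.82 (SD, n = 3 each). Each difference was smaller than the SD between negative siRNA cultures, although that of Ppp3cb was larger than the SD between DNMT1 siRNA cultures. Ppp3cc, which is no member of the 10, had a log2 ratio of -0.0043 (SE 0.19, adjusted p = 0.991). Summed over these genes, calcineurin A stood at 27.0 ± 1.24 CPM per kilobase in the controls and 26.7 ± 0.0415 after knockdown, beside 44.1 ± 3.51 and 39.2 ± 1.01 for Ppp3r1 (SD, n = 3 each). Setting RCAN against calcineurin A, the RCAN sum was higher than the catalytic sum in every culture of both treatments. The highest of the 10 genes per kilobase was Ppp3r1 in both treatments, and the next was Rcan2. In the controls Rcan2 (18.9 ± 3.40 CPM per kilobase) was followed by Ppp3ca (14.8 ± 1.27), Nfatc3, Rcan1 (10.6 ± 3.08), Ppp3cb (8.74 ± 0.372), Rcan3 (7.99 ± 0.657) and Nfatc4, and each of these lay within 1 SD ranges that overlapped those of its neighbour. After knockdown the order was the same, with Rcan2 at 34.0 ± 0.791 and Ppp3ca at 14.9 ± 0.652, and no neighbours in it overlapped by their 1 SD ranges.

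The wider pathway was described with 68 further genes, of which 64 were tested, 7 were up-regulated and 0 were down-regulated. That is 10.9% of those tested, beside 6.49% of all tested genes, and their median log2 ratio was 0.10. The lists were chosen with earlier results of these data known, so the higher share cannot be read as a result about the pathway. With no limit on the fold change, 8 of the 64 were higher and 5 were lower at an adjusted p below 0.05. Of all 15470 tested genes, 1054 (6.81%) were higher and 874 (5.65%) were lower.

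Calcium entry and release genes held 2 up-regulated genes among 11. Ryr2, the calcium release channel of the cardiac sarcoplasmic reticulum, rose from a mean of 1458 ± 352 to 4429.7 ± 365 normalized counts (SD, n = 3 each). The log2 ratio was 1.60 (SE 0.17, adjusted p = 0.00157). Itpr2, an inositol trisphosphate receptor of heart muscle, rose by a log2 ratio of 0.68 (SE 0.11, adjusted p = 0.00786). Itpr1, another receptor of this kind, had an adjusted p of 0.00319 but a fold change of 1.46, short of the limit. Itpr3, named after its value was seen, had a fold change of 0.680 (adjusted p = 0.0382). Stim2, a sensor of calcium stores, had a log2 ratio of 0.13 (adjusted p = 0.387).

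Of the genes that anchor or inhibit calcineurin, 12 were listed, 10 were tested and 1 was up-regulated. Myoz2 encodes calsarcin-1, a Z-disc protein that tethers calcineurin in heart muscle. Its normalized counts were 110, 190 and 151 in the controls and 434, 353 and 319 after knockdown, without overlap. The log2 ratio was 1.30 (SE 0.21, adjusted p = 0.00786). Fkbp1a, the binding protein of the calcineurin-blocking drug tacrolimus, had a log2 ratio of -0.05 (adjusted p = 0.681), and Akap5, which anchors calcineurin at membranes, one of 0.34 (adjusted p = 0.232).

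Among 9 kinases that return NFAT to the cytoplasm, 0 passed both limits. Csnk1a1, a casein kinase, had 12070 ± 819 normalized counts in the controls and 9539 ± 272 after knockdown (SD, n = 3 each). Its log2 ratio of -0.34 passed the adjusted p limit (0.0237) but not the fold limit. The glycogen synthase kinases had log2 ratios of -0.27 for Gsk3a (adjusted p = 0.0481), named after its value was seen, and -0.25 for Gsk3b (adjusted p = 0.0929). Nfat5, the relative of the NFATC factors that answers to salt stress and not to calcineurin, had a log2 ratio of 0.41 (SE 0.13, adjusted p = 0.0732).

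NFAT partner factors held 1 up-regulated gene among 12, Fos, a subunit of AP-1, with a log2 ratio of 0.71 (SE 0.14, adjusted p = 0.0176). Gata6, a cardiac GATA factor, had 0.17 (adjusted p = 0.289), and Fosl2, another AP-1 subunit, -0.13 (adjusted p = 0.334). Junb and Jund, named after their values were seen, had adjusted p values of 0.0331 and 0.0481 with fold changes of 0.802 and 0.779. Among 7 other calcineurin substrates 0 passed the limits, with Dnm1l, a fission factor of mitochondria, at 0.10 (adjusted p = 0.304) and Crtc3, a coactivator of CREB, at -0.10 (adjusted p = 0.414).

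Genes that respond to calcineurin and NFAT in other settings numbered 11, with 10 tested and 3 up-regulated. Edn1, the precursor of the growth peptide endothelin-1, had 969, 1422 and 1244 normalized counts in the controls and 2638, 2634 and 2553 after knockdown. The log2 ratio was 1.11 (SE 0.13, adjusted p = 0.00222). The natriuretic peptide genes Nppb and Nppa were the others that rose, by log2 ratios of 2.63 (adjusted p = 0.000321) and 1.65 (adjusted p = 0.00230). Vegfa, a vascular growth factor, had 2581, 8218 and 3927 normalized counts in the controls and 3043, 2902 and 3117 after knockdown, with negative siRNA replicate 2 again the highest (log2 ratio -0.70, SE 0.35, adjusted p = 0.229). Myh7, the slow myosin heavy chain, had 945, 3496 and 1267 normalized counts in the controls and 2388, 2300 and 1874 after knockdown. Negative siRNA replicate 2 was above all other cultures here too, and the other controls lay below every DNMT1 siRNA culture (log2 ratio 0.20, SE 0.42, adjusted p = 0.787). Rcan1, which also responds to NFAT, did not pass the limits. Ryr2, Myoz2, Nppa and Nppb are genes of heart muscle cells, and they rose together with the 6 cardiomyocyte markers, which summed to 1680 to 2023 CPM in the controls and 3758 to 4557 after knockdown. The part of those markers' rise in these values was not tested.

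**Figure D4:**
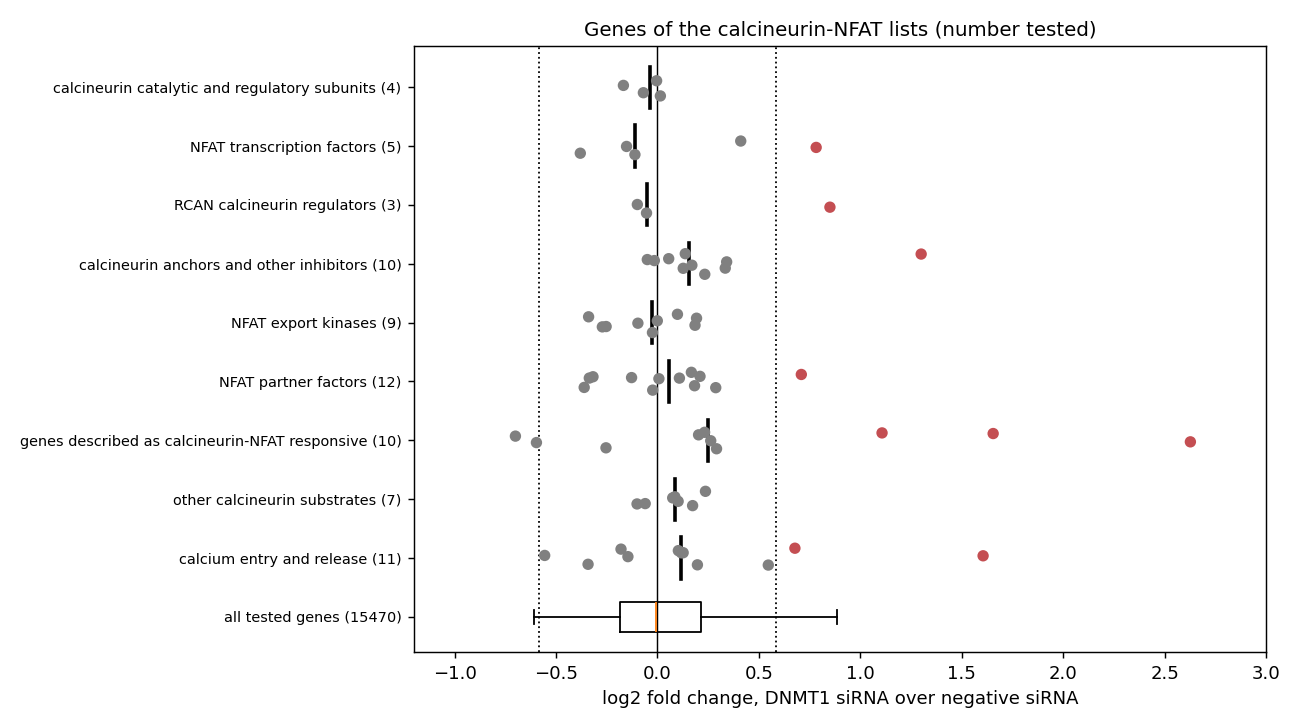
Log2 fold change (x axis) of every tested gene in 9 gene lists, the 10 genes under study included; the number tested is in brackets, black bars are medians, red points passed both limits and dotted lines mark 1.5-fold. The box of all tested genes spans the quartiles, with whiskers at the 5th and 95th percentiles. The red points, 9 in all, lie to the right of 0, and the lists of calcineurin subunits, export kinases and other substrates hold none.

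The strength of both positive calls was compared across 16 other settings. In 1 of these the reported fit was kept and only the fold limit dropped, so both genes had to pass it. Rcan2 passed the limits in all of them except the test against a fold change of 1.5. Nfatc2 also failed that test (adjusted p = 0.818), and failed with the replicate block and in the 5 fits without 1 culture named above. The negative siRNA libraries were also thinned at random to the depth of the DNMT1 siRNA libraries, and both genes then passed (adjusted p = 0.00571 for Rcan2 and 0.0400 for Nfatc2).

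**Figure D5:**
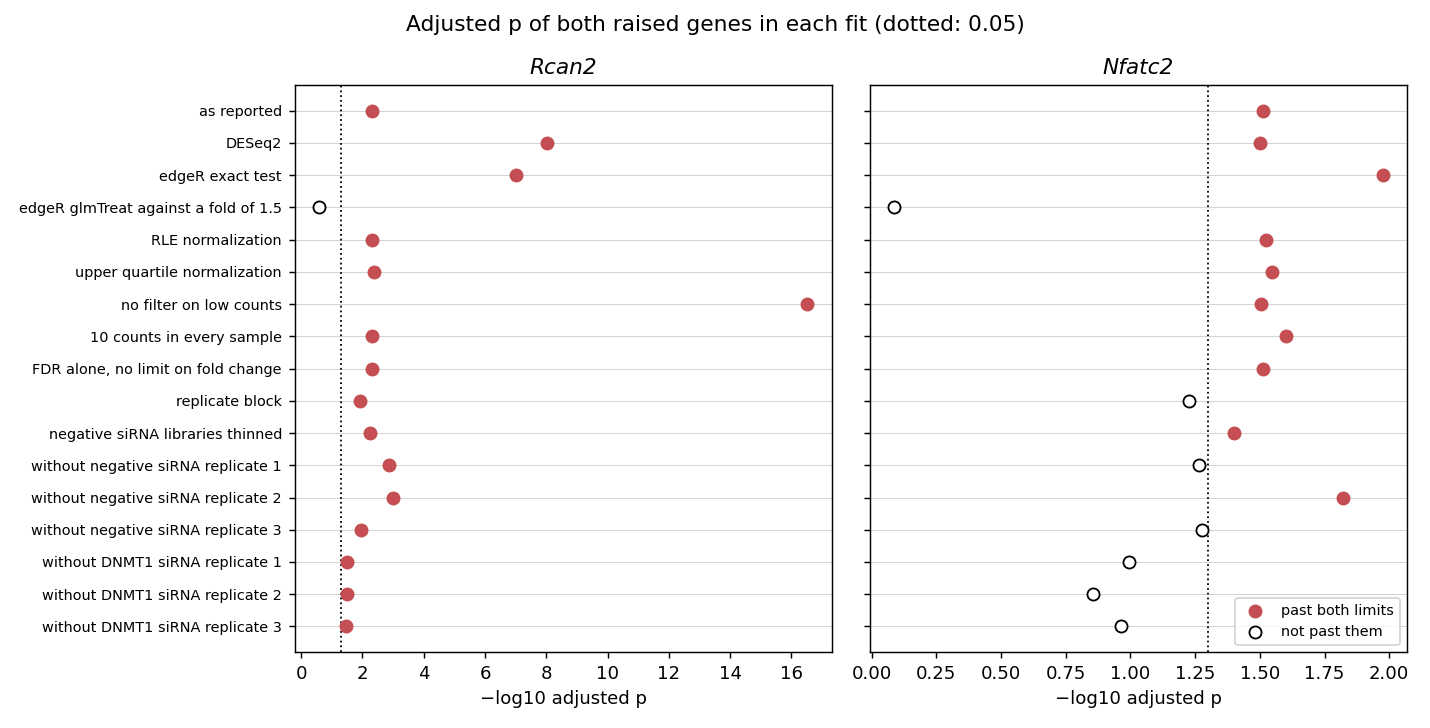
Adjusted p (x axis, as −log10, with a different range in each panel) of Rcan2 and Nfatc2 in the reported fit and in 16 other settings. The setting with no fold limit is the reported fit again. Filled points passed both limits, open points did not, and the dotted line marks 0.05. Rcan2 has 1 open point and Nfatc2 has 7.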

How the data were processed

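RNA-Seq was performed on 3 negative siRNA and 3 DNMT1 siRNA cultures. The authors cleaned reads after FastQC, mapped them to mm10 with TopHat2 and used HTSeq to count reads on Ensembl genes. The values they deposited were unnormalized counts, and tool versions and the strand setting are not given in the sources used here. The counter's totals of unassigned reads stayed out of library sizes. Groups follow the sample titles.

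Counts were normalized by TMM and filtered by filterByExpr (minimum count 10, minimum total 15), and tested by edgeR's quasi-likelihood test (edgeR 4.0.16, R 4.3.3) with Benjamini-Hochberg adjustment over 15470 genes. Genes with an adjusted p below 0.05 and an absolute fold change above 1.5, the limits of the study, were called. SE is the absolute log2 fold change over the square root of F. Levels per kilobase used the union of exons in GENCODE M21 (GRCm38), which names 42548 of the 43629 genes. DESeq2 1.42.0 was an alternative. The pipeline was tested on simulated counts. No replicate pair was a duplicate. Chi-square per degree of freedom was 26.4 to 54.5 between negative siRNA cultures and 2.70 to 9.86 between DNMT1 siRNA cultures, which were the more alike. This value also grows with depth, which was higher with negative siRNA, and the cause of the difference was not tested.

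The 10 genes and all lists were chosen with earlier results of these data known. Genes named from each list are those past both limits and the 2 highest expressed of the rest. Ppp3cc is named to complete the catalytic family, and other exceptions are marked. The figures were drawn with matplotlib 3.10.9. One of the gene lists is counted in the totals but not reported here.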

Additional observations from a re-analysis of the deposited data

How the results depend on the processing

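The number of called genes over all tested genes was 1004. It was 176 when tested against a fold change of 1.5, 1695 with no filter, 1928 with no fold limit, and 367 to 1245 when 1 culture was left out, the lowest counts coming without a DNMT1 siRNA culture (462, 367 and 459 without replicates 1, 2 and 3). Of the 10 genes under study, 2 were called, and this became 0 against a fold change of 1.5, 1 with the replicate block and 1 to 2 without 1 culture. The 7 called genes of the wider lists became 4 against a fold change of 1.5, 13 with no fold limit and 5 to 11 without 1 culture, with 11 without negative siRNA replicate 2. The cause of these shifts was not tested.

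Dnmt1 kept its call in all 16 alternatives, although it could not lose it in the 1 that only dropped the fold limit. The 8 uncalled genes stayed uncalled in all 128 comparisons with these alternatives, and the sign turned in 7 of the comparisons. Not all of these comparisons could add a call. Dropping only the fold limit repeats the reported fit, in which each of the 8 had an adjusted p above 0.05. The test against a fold change of 1.5 is stricter than the reported test. Ppp3ca was at -0.015 with no filter and between -0.029 and 0.088 without 1 culture, Rcan1 between -0.20 and 0.21, and Nfatc4 between -0.62 and 0.055. The positive values of Rcan1 and Nfatc4 came without negative siRNA replicate 2. Of 70 recomputed differences in family shares, 65 kept their sign, and 69 moved by less than the larger of the SDs of both treatments. Leaving out 1 culture cannot move a difference by that much, so only the fits with the longest transcript as length could exceed it. The share of Nfatc2 did, from 0.892 to 0.770 percentage points. Without negative siRNA replicate 2 the difference in share turned from 1.21 to -4.36 percentage points for Nfatc3, from -2.82 to 2.93 for Nfatc4 and from 1.16 to -0.378 for Ppp3ca. The other turns were of Ppp3cc, from 0.102 to -0.809 without negative siRNA replicate 1 and to -1.52 without DNMT1 siRNA replicate 2.

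No pairing of the cultures by replicate number was seen across genes. Deviations from the group means correlated at 0.0064, -0.021 and 0.027 for cultures of equal number. A pairing that touches few genes would not show in these values. With the replicate block 798 genes were called, and the block changed the call of Nfatc2 only among the 10. Nfatc2 rested on 51 to 80 reads per library.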
